A study of Homo sapiens with 9 samples.

Results

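The 58 genes described here encode the ephrin, semaphorin, netrin and SLIT guidance systems, that is the ligands and their receptors. They were taken by name from the 60708 genes in the files. The rule used no measured value, but the members were chosen with earlier results of these data known. They are 13 Eph receptors, 8 ephrins, 16 semaphorins, 8 plexins, 2 neuropilins, 2 netrins, 4 netrin receptors, 3 SLIT ligands and 2 ROBO receptors. RNA was sequenced in 9 libraries that are all labelled as untreated MDA-MB-231 cells, an established triple-negative breast cancer line with a mesenchymal shape, 3 each of wild-type (WT) cells and of the clones CS16 and CS19, which are labelled SNAI1-KO. By the study's methods the clones were made with CRISPR/Cas9 and repair-template plasmids and puromycin selection, each as 1 stable clone. The libraries of CS16 and CS19 were, however, not lower than WT in SNAI1 counts. They also went against their labels in genes of the line, as given next to their depth. SNAI1 is a zinc-finger repressor that drives epithelial-mesenchymal transition.

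Guidance molecules steer axons and vessels, and they also set how epithelial and tumour cells attract, repel and sort from one another. Ephrins are bound to the cell surface and signal through Eph receptor tyrosine kinases on a touching cell, while the ephrin-bearing cell signals back. Semaphorins act on plexins, which are GTPase-activating proteins for small Ras-family GTPases, and most secreted class 3 semaphorins need a neuropilin to bind. Netrins act on DCC, NEO1 and the UNC5 receptors, and the secreted SLIT proteins act on ROBO receptors.

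The libraries held between 19527195 and 28627777 counts in genes. SNAI1 itself had 16, 38 and 21 counts in WT, 26, 40 and 49 in CS16 and 57, 94 and 94 in CS19, so it was not lower in the libraries labelled as knockouts. A count over the whole gene also takes exons outside the edited part and did not test the edit. For the clones, the paper reports SNAI1 deletions in aligned reads, lower SNAI1 RNA at each exon by RT-qPCR and no detectable protein. CDKN2A, CDKN2B and MTAP, genes of 9p21 that the MDA-MB-231 line is known to lack, had 0 counts in all 3 WT libraries and 1106 to 1575, 235 to 326 and 2139 to 3137 counts in the 6 others. Of 20 MDA-MB-231 mesenchymal and basal markers, 18 were called lower in the 6 libraries, with a summed level of 18400 to 23200 TPM in WT and 327 to 467 TPM in the 6, and CD44 was at 0 in 5 of the 6. S100A6 alone made up 65.4% of the summed level of these markers in WT. Of 15 mammary luminal markers 12 were tested and 10 were called lower and 1 higher (1350 to 2260 against 228 to 282 TPM), with TFF1 and TFF3 at 0 in the 6. FOXA1 went the other way, with 2 counts in WT, 221 in CS16 and 1249 in CS19. Of 14 neuronal markers, 8 were tested, and 5 were called higher and 2 lower (7.64 to 9.89 against 96.9 to 166 TPM), with NEFL and NEFM among 4 at 0 in WT. NEFL alone made up 73.7% of this sum in CS16 and 49.8% in CS19. ELAVL3 went the other way, with 14 counts in WT, 2 in CS16 and 3 in CS19. Of 13 embryonic kidney markers, 10 were tested, and 5 were called higher and 2 lower (38.7 to 78.0 against 92.9 to 125 TPM), with PAX2, SALL1 and HOXD11 at 0 in WT. Of 8 endothelial markers 4 were tested and 3 were lower (56.6 to 102 against 2.31 to 3.98 TPM), with ESAM alone at 90.7% of the sum in WT. Of 9 fibroblast markers 6 were tested, 2 higher and 2 lower (17.9 to 46.4 against 4.61 to 35.3 TPM), and of 8 haematopoietic markers 4 were tested, 1 higher and 1 lower (10.4 to 14.6 against 3.32 to 10.7 TPM). The clones lay apart in both lists. Fibroblast markers summed to 28.5 to 35.3 TPM in CS16 and 4.61 to 6.35 in CS19. Haematopoietic markers summed to 8.08 to 10.7 TPM in CS16 and 3.32 to 4.46 in CS19. The 6 libraries thus differed from WT in defining features of the line, and it was not tested whether the clones derive from the same line as WT. In every comparison with WT, a difference of cell line or clone and the labelled loss of SNAI1 cannot be told apart, so the values below are differences between these libraries. In bulk RNA, moreover, fewer cells of a type and less RNA per cell cannot be told apart. The library WT-2 stood apart: its counts differed from WT-1 and WT-3 by a chi-square of 220.9 and 270.9 per degree of freedom, against 16.9 between WT-1 and WT-3. It was the highest of the WT libraries for 42 of the 52 members with enough counts, so calls over the 6 libraries that ended without it, and called values that moved by more than 1.5 times, are given with the value without it.

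A gene was called higher or lower where the log2 fold change reached 2 or -2 and the p of edgeR's quasi-likelihood test, adjusted by Benjamini and Hochberg, was below 0.05. Levels between libraries are in CPM, the counts scaled to a fixed library total with TMM factors, and levels between genes are in TPM, which also divides by the length of a gene. Positions are those of the files (GRCh38.p13), where EPHA2 (ENSG00000142627.13) spans chr1:16124337-16156069 on the minus strand, NRP1 (ENSG00000099250.18) spans chr10:33177492-33336262 on the minus strand, SLIT2 (ENSG00000145147.20) spans chr4:20251905-20620561 on the plus strand and ROBO1 (ENSG00000169855.20) spans chr3:78597239-79767998 on the minus strand.

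In the 6 libraries labelled SNAI1-KO against WT, 21 members were called higher and 15 lower of 57 tested, and DCC was too low to test. The background over 19631 genes in the test was 12.6% on the higher side and 14.3% on the lower, beside 36.8% and 26.3% of the members. Without the fold threshold, 25 members were higher and 26 lower, where 31.1% and 32.6% of all genes were. As the members were chosen with earlier results of these data known, these shares are a description. The median log2 fold change of the members was -0.33 beside 0.00 over all genes, and it stayed at -0.33 with ROBO2, which had no count in WT, at its lower bound. Among the members, all 5 SLIT and ROBO genes and 4 of 5 tested netrin-group genes were called higher and none lower. By contrast, 6 of 10 plexins and neuropilins were called lower and none higher. ROBO4, a ROBO receptor outside the members, was called lower. The semaphorins split into 5 higher and 5 lower of 16, the Eph receptors into 4 higher and 3 lower of 13, and the ephrins into 3 higher and 1 lower of 8. Leaving out WT-2 gave 21 higher calls, 11 lower calls and a median of -0.09, where 13.0% and 12.9% of all genes were called higher and lower.

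**Figure D1:**
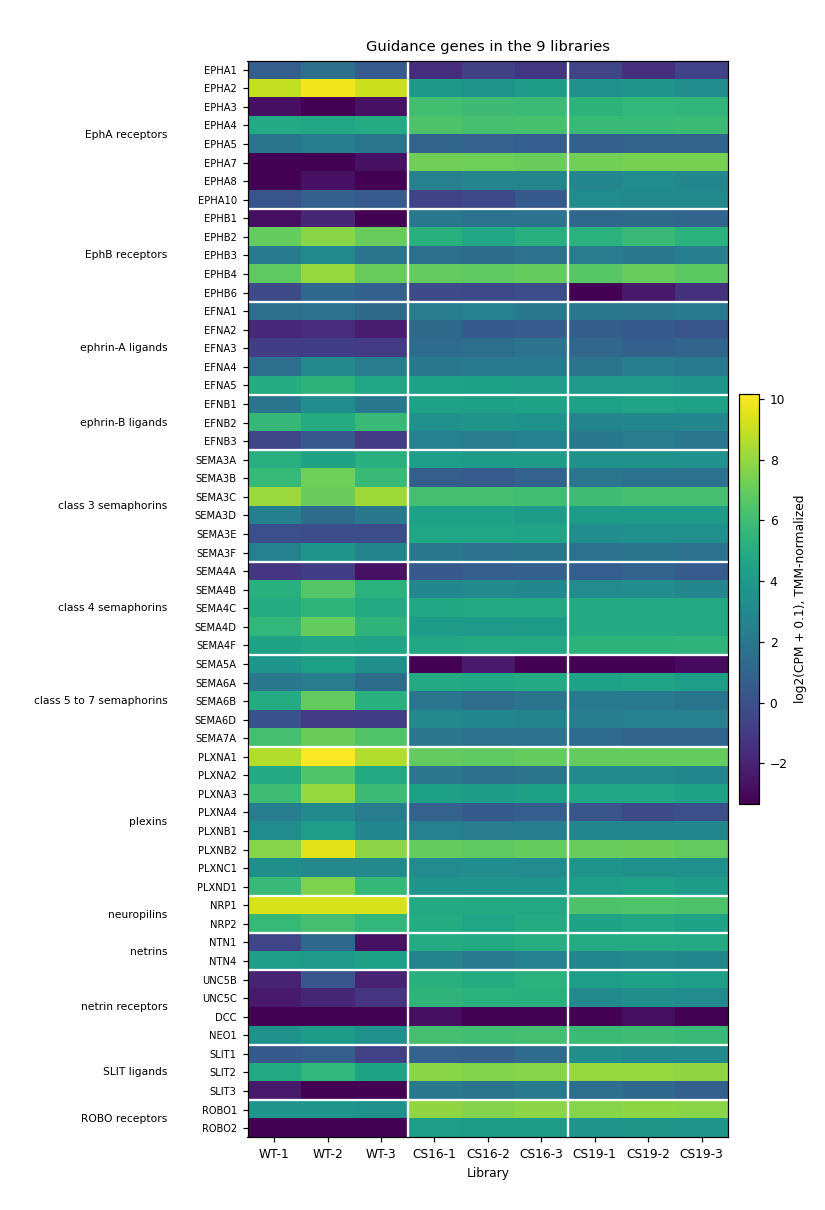
Level of each of the 58 guidance genes (rows, by subfamily) in each of the 9 libraries (columns), as log2(CPM + 0.1) on the colour scale. The SLIT and ROBO rows are brighter in all 6 CS16 and CS19 libraries than in WT, EPHA2 and NRP1 are darker, and WT-2 is brighter than WT-1 and WT-3 in most plexin rows.

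Each clone was also set against the same 3 WT libraries, which both comparisons share. CS16 had 20 members called higher and 14 lower of 57 tested, where 11.8% and 15.3% of all genes were called. CS19 had 22 called higher and 15 lower of 57, where 12.0% and 14.4% of all genes were called. No member was called in opposite directions in the clones. The members called in a single clone were EPHA10, EPHB2, EPHB6, EFNB2, SEMA4D, PLXNA4 and SLIT1, and each is described with its subfamily.

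**Figure D2:**
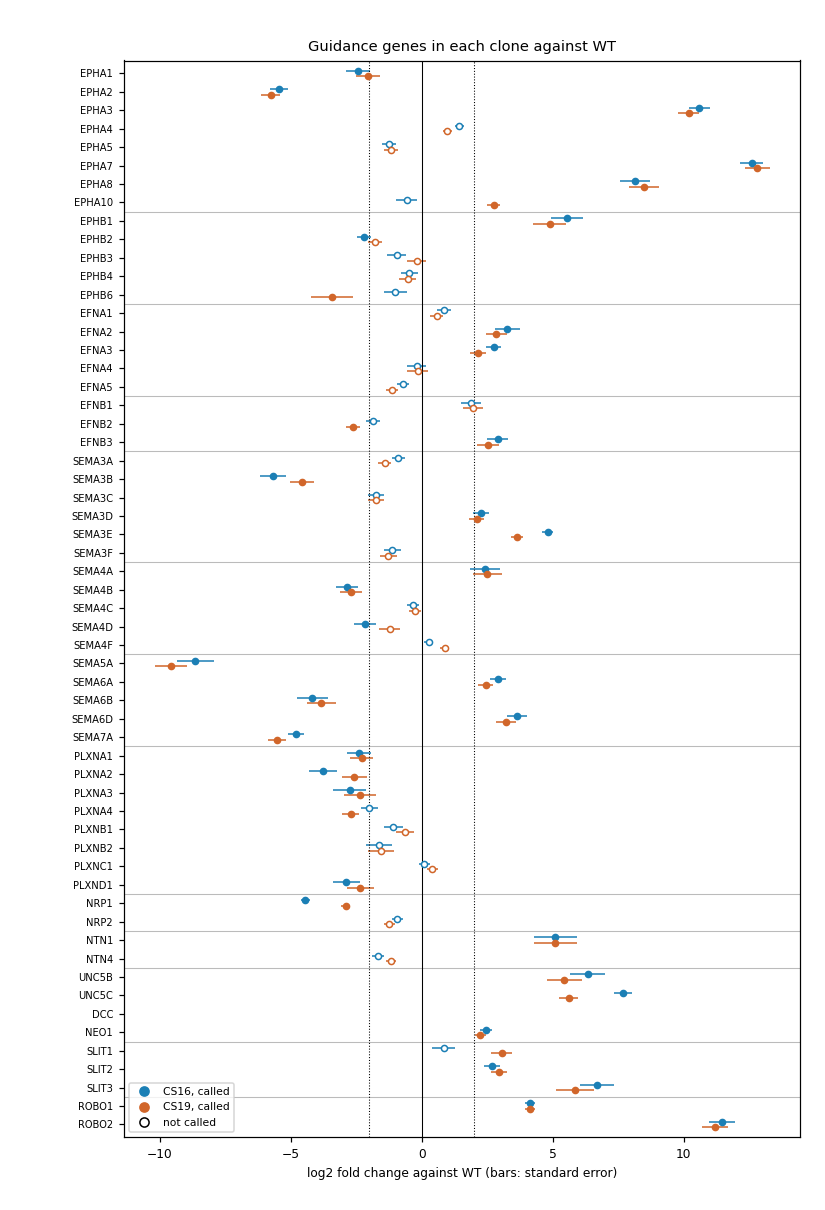
Log2 fold change of each member in CS16 and in CS19 against WT (points, with standard errors as bars), with filled points for called members. EPHA7, EPHA3 and ROBO2 lie farthest to the right and SEMA5A farthest to the left, but the values of genes with few or no counts in a group depend on the prior count; DCC was not tested and has no point.

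SNAI1 binds the E-box CAGGTG, which reads CACCTG on the other strand, and the forkhead factors FOXA1 and FOXA2 bind TGTTTAC, which reads GTAAACA. RefSeq promoters (GRCh38.p14, 250 bases before to 50 after a start) were listed for 50 of the 58 members, as 76 promoters. The E-box letters occurred in 12 of these 76 promoters, or 15.79%, beside 20.59% of 35116 promoters of all genes. By member it was 3 of 17 called higher, 4 of 13 called lower and 3 of 19 not called. The FOXA letters were in 2 of the 76 promoters, or 2.63%, beside 3.42% of all promoters. A match is only a match of letters, and no match says nothing about binding. The 250 bases before the start are shown for 3 members called lower that hold the E-box (in capitals), and for EPHA2, EPHA3 and SLIT2, which hold none and were chosen after their values were seen, for their change and level.
EPHA1, chr7:143408857-143409106, minus strand: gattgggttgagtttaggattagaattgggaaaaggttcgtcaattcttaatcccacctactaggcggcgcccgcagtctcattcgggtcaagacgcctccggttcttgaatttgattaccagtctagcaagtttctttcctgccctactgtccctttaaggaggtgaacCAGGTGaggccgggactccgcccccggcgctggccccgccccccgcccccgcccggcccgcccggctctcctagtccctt
EPHB2, chr1:22710589-22710838, plus strand: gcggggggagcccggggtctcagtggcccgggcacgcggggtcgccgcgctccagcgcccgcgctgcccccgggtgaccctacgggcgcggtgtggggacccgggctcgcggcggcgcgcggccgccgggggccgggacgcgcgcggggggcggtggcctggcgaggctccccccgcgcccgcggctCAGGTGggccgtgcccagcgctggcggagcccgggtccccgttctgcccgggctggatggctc
EFNB2, chr13:106535663-106535912, minus strand: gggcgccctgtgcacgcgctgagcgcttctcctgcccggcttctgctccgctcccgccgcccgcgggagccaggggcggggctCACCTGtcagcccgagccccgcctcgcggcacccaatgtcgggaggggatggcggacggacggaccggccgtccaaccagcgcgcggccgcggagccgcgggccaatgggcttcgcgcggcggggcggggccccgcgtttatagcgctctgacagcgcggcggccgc
EPHA2, chr1:16156070-16156319, minus strand: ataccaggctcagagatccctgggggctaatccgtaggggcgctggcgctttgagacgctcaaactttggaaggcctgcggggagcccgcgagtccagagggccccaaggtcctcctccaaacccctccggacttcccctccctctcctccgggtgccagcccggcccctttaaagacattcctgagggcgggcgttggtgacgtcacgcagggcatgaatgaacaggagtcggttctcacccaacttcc
EPHA3, chr3:89107371-89107620, plus strand: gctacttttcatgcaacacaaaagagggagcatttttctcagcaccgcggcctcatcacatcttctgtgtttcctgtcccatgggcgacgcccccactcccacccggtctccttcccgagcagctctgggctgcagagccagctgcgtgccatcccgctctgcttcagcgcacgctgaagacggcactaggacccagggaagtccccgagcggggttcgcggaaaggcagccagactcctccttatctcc
SLIT2, chr4:20251655-20251904, plus strand: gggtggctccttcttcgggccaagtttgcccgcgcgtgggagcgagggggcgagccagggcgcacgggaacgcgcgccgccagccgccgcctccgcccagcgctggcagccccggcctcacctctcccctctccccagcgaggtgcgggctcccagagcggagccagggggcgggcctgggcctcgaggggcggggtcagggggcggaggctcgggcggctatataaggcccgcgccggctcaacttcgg
The E-box began 80 bases before the start in EPHA1, 63 in EPHB2 and 167 in EFNB2. It was also at 236 bases before a start of SEMA3B, which was called lower. Among members called higher, it was at 189 bases before a ROBO1 start, 103 before an EPHA7 start and 211 before a SEMA4A start. These ROBO1, EPHA7 and SEMA4A starts lay 748539, 2527 and 2578 bases from the annotated gene start.

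Among the Eph receptors, the family was carried by other members in the clones than in WT. EPHA2, a receptor of ephrin-A ligands that is abundant in basal-like breast cancer cells, was the most abundant of them in WT and fell, with 477, 928 and 531 CPM in WT, 14.2, 12.3 and 16.9 in CS16 and 11.6, 13.1 and 9.75 in CS19 (log2 fold change -5.64, SE 0.24, edgeR adjusted p = 3.87e-09). All 6 libraries lay below all 3 WT libraries. EPHA2 made up 77.7% of the summed Eph receptor TPM in WT, 6.29% in CS16 and 5.38% in CS19. EPHB4, the receptor of EFNB2, had 2285, 4468 and 2541 counts in WT, 2410, 2368 and 3077 in CS16 and 2193, 2956 and 3262 in CS19, and its groups overlapped in CPM (log2 fold change -0.53, SE 0.22, edgeR adjusted p = 0.0556). It was the most abundant Eph receptor in both clones, at 32.9% of the summed TPM in CS16 and 33.4% in CS19, after EPHA2 in WT.

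EPHA7 and EPHA3, receptors best known from the developing nervous system, went from almost no reads to a high level. EPHA7 had 0, 0 and 1 counts in WT, 3013, 2977 and 3428 in CS16 and 3394, 3787 and 5081 in CS19, a ratio of 8740 with a 95% exact counting interval of 1570 to 345000 (edgeR adjusted p = 4.37e-10). EPHA3 had 1, 0 and 1 counts in WT, 1379, 1260 and 1458 in CS16 and 924, 1104 and 1439 in CS19, a ratio of 1520 with an interval of 422 to 12600 (edgeR adjusted p = 2.21e-09). Such intervals cover counting error only. EPHA8 was likewise higher, at a lower level, with 0, 1 and 0 counts in WT, 119, 145 and 171 in CS16 and 163, 214 and 229 in CS19, a ratio of 420.0 with an interval of 75.2 to 16600 (edgeR adjusted p = 7.36e-08). In none of these 3 genes did a WT library hold more than 1 count. The fitted log2 fold change, which depends here on the prior count, was 12.68 for EPHA7 and 14.74 without WT-3, which held its only WT count, and 8.30 for EPHA8 and 10.37 without WT-2, which held its only WT count. In CS16 the mean levels of EPHA4, EPHA3 and EPHA7 were 31.9 ± 6.08, 29.5 ± 5.96 and 27.0 ± 4.21 TPM (SD, n = 3), which lie within each other's spread.

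EPHB1 rose from a few counts, with 1, 3 and 0 counts in WT, 84, 65 and 84 in CS16 and 47, 56 and 62 in CS19 (log2 fold change 5.23, SE 0.59, edgeR adjusted p = 1.11e-05, and 6.54 without WT-2). EPHB2, which binds B-type ephrins and directs cell sorting in the intestinal crypt, had 123, 215 and 127 CPM in WT, 37.0, 27.4 and 35.0 in CS16 and 39.1, 53.5 and 38.8 in CS19 (log2 fold change -2.01, SE 0.22, edgeR adjusted p = 9.16e-06). All 6 libraries were below WT, yet the call sat at the threshold: the log2 fold change was -1.98 in DESeq2, -1.89 with no filter on low counts and -1.71 without WT-2. It also lost the call without any 1 of the CS16 libraries (-2.00, -1.93 and -1.99). In CS16 alone it was called (log2 fold change -2.20, SE 0.28, edgeR adjusted p = 0.000474, and -1.92 without WT-2), and in CS19 it was not (log2 fold change -1.79, SE 0.28, edgeR adjusted p = 0.00132). EPHA1 was low, at 28 to 53 counts in WT and 5 to 17 in the 6 others, and its call ended without WT-2 (-2.25, then -1.84).

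EPHA4, EPHA5 and EPHB3 were not called. EPHA4, which can bind ligands of both ephrin classes, was higher in all 6 libraries than in WT but by less than the threshold (log2 fold change 1.19, SE 0.18, edgeR adjusted p = 0.000129). EPHA5 was lower by less than the threshold (log2 fold change -1.23, SE 0.21, edgeR adjusted p = 0.000269). EPHB3 overlapped between the groups (log2 fold change -0.55, SE 0.32, edgeR adjusted p = 0.158). With every member added up, Eph receptors summed to 514 TPM in WT-1, 992 in WT-2 and 454 in WT-3, and to 139 to 204 TPM in the 6 others. The mean was 3.93 times as high in WT, and 2.91 times without WT-2.

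**Figure D3:**
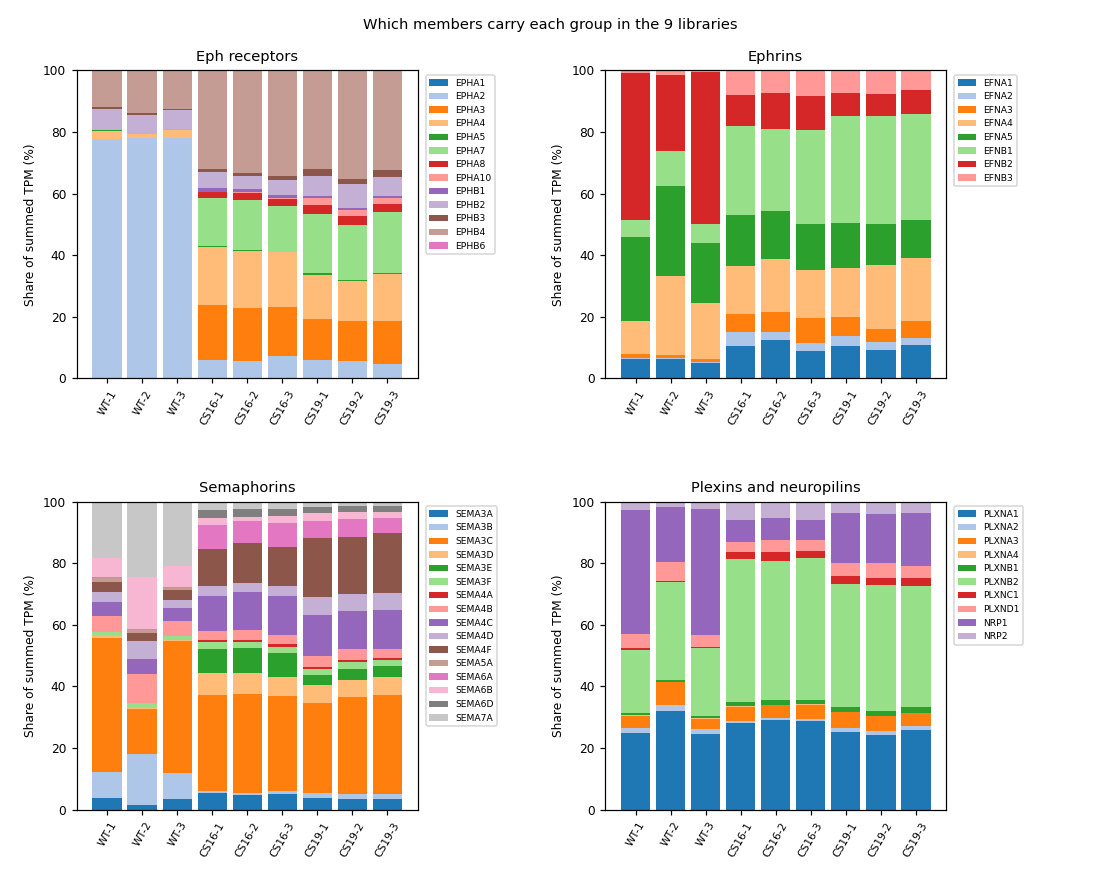
Share of each member in the summed TPM of its group, in percent, for each of the 9 libraries (stacked bars that add up to 100%). EPHA2 fills 77.7% of the Eph receptor bars in WT on average, whereas EPHB4, EPHA4, EPHA3 and EPHA7 fill most of those of the clones, and EFNB1 takes a larger share of the ephrins in the clones than in WT.

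The ephrins, the ligands of these receptors, overlapped in summed level, at 59.6 to 85.5 TPM in WT and 50.6 to 77.1 TPM in the 6 others, but their order changed. EFNB2, a transmembrane ligand with roles in vessels, was the most abundant ephrin in WT at 39.1% of the summed TPM, and EFNB1 was the most abundant in CS16 and CS19 at 28.9% and 34.8%. EFNB2 had 49.4, 30.6 and 53.4 CPM in WT, 11.1, 12.9 and 11.9 in CS16 and 6.63, 7.11 and 7.37 in CS19 (log2 fold change -2.23, SE 0.25, edgeR adjusted p = 1.3e-05). All 6 libraries were below WT, WT-2 had the lowest level of the WT libraries, and 36.4% of the exon bases of EFNB2 overlap a gene on the opposite strand. EFNB2 was called in CS19 (log2 fold change -2.62, SE 0.26, edgeR adjusted p = 0.000116) and not in CS16 (log2 fold change -1.86, SE 0.25, edgeR adjusted p = 0.000589), where it was called without WT-2 (-2.11). EFNB1 had 3.65, 9.36 and 4.26 CPM in WT, 20.8, 19.2 and 22.4 in CS16 and 20.5, 23.5 and 21.1 in CS19, with no overlap between the groups (log2 fold change 1.89, SE 0.28, edgeR adjusted p = 0.000116). It was not called, and it was called without WT-2 (2.42) and with no filter on low counts (2.01).

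EFNB3, EFNA2 and EFNA3 rose from low levels. EFNB3 had 0.641, 1.25 and 0.411 CPM in WT, 5.64, 5.15 and 5.97 in CS16 and 4.27, 4.99 and 3.83 in CS19 (log2 fold change 2.70, SE 0.35, edgeR adjusted p = 3.42e-05). EFNA2 had 0.197, 0.228 and 0.103 CPM in WT, 2.40, 1.29 and 1.43 in CS16 and 1.45, 1.30 and 1.05 in CS19 (log2 fold change 3.04, SE 0.42, edgeR adjusted p = 6.28e-05). EFNA3 had 0.444, 0.456 and 0.411 CPM in WT, 2.50, 2.82 and 3.38 in CS16 and 2.04, 1.69 and 1.96 in CS19 (log2 fold change 2.44, SE 0.32, edgeR adjusted p = 4.49e-05), but 43.9% of its exon bases overlap the EFNA4-EFNA3 read-through gene, so its reads could be split. For each of these 3 genes, every one of the 6 libraries was above every WT library. EFNA5, the A-type ephrin with the highest mean TPM in WT but after EFNA4 in both clones, had 32.2, 41.5 and 24.3 CPM in WT, 20.4, 19.4 and 18.6 in CS16 and 14.9, 15.1 and 13.4 in CS19 and was lower in all 6 by less than the threshold (log2 fold change -0.95, SE 0.20, edgeR adjusted p = 0.00136). EFNA1, a preferred ligand of EPHA2, was higher in all 6 by a small amount (log2 fold change 0.68, SE 0.22, edgeR adjusted p = 0.0173). EFNA4 did not pass the test (log2 fold change -0.22, SE 0.28, edgeR adjusted p = 0.525), and its direction turned without WT-2 (0.21).

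The semaphorins, ligands of the plexins, summed to 315 to 515 TPM in WT and to 97.8 to 128 TPM in the 6 others. SEMA3C, a secreted ligand that had the highest mean TPM of the semaphorins in every group, had 279.9, 133 and 298 CPM in WT, 69.3, 70.6 and 65.6 in CS16 and 62.9, 70.8 and 71.1 in CS19, below WT in all 6 libraries (log2 fold change -1.79, SE 0.21, edgeR adjusted p = 1.38e-05). It missed the fold threshold and passed it without WT-2 (-2.08). SEMA3B, which is known as a tumour suppressor in lung and breast, had 51.4, 142 and 54.9 CPM in WT, 1.57, 1.38 and 1.79 in CS16 and 3.77, 3.12 and 3.31 in CS19 (log2 fold change -5.05, SE 0.40, edgeR adjusted p = 5.87e-07, and -4.41 without WT-2). SEMA3E, the ligand of PLXND1, had 0.888, 0.856 and 0.821 CPM in WT, 23.7, 24.0 and 23.0 in CS16 and 9.63, 10.8 and 10.9 in CS19 (log2 fold change 4.30, SE 0.44, edgeR adjusted p = 5.66e-06). SEMA3D had 5.62, 2.57 and 4.21 CPM in WT, 20.8, 20.4 and 17.3 in CS16 and 16.7, 17.5 and 17.5 in CS19 (log2 fold change 2.15, SE 0.24, edgeR adjusted p = 1.18e-05), and its call ended without WT-2 (1.90), the lowest WT library for this gene. The groups did not overlap in any of these 4 genes. SEMA3A and SEMA3F, which act through NRP1 and NRP2, were lower in all 6 libraries without a call (-1.16 and -1.23 on the log2 scale).

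Among the membrane-bound class 4 semaphorins, SEMA4B fell, with 36.7, 96.3 and 38.4 CPM in WT, 7.65, 8.26 and 7.60 in CS16 and 8.95, 9.50 and 7.43 in CS19 (log2 fold change -2.80, SE 0.27, edgeR adjusted p = 3.48e-06, and -2.20 without WT-2). SEMA4A rose from 1 to 8 counts in WT, with 7, 8 and 1 counts in WT, 26, 33 and 41 in CS16 and 33, 43 and 42 in CS19 (log2 fold change 2.43, SE 0.44, edgeR adjusted p = 0.000522). Its call ended without WT-3 (1.95), the library with 1 count. SEMA4D, the ligand of PLXNB1, had 47.6, 123 and 43.4 CPM in WT, 17.1, 14.7 and 15.8 in CS16 and 30.2, 29.7 and 28.9 in CS19, and CS16, CS19 and WT each kept apart. It was called in CS16 (log2 fold change -2.15, SE 0.42, edgeR adjusted p = 0.0039), but not without WT-2 (-1.52), and it was not called in CS19 (log2 fold change -1.23, SE 0.41, edgeR adjusted p = 0.0353). SEMA4F, the class 4 member with the highest mean TPM in both clones but below SEMA4B, SEMA4C and SEMA4D in WT, had 22.7, 25.6 and 23.1 CPM in WT, 27.0, 29.3 and 27.5 in CS16 and 41.8, 42.0 and 44.0 in CS19 (log2 fold change 0.57, SE 0.20, edgeR adjusted p = 0.03), a difference under the threshold. SEMA4C did not pass the test (log2 fold change -0.33, SE 0.16, edgeR adjusted p = 0.0835).

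All 5 semaphorins of classes 5 to 7 among the members were called. SEMA5A had 275, 350 and 205 counts in WT, 0, 2 and 0 in CS16 and 0, 0 and 1 in CS19, so it was 686 times as high in WT with an interval of 234 to 3330 (edgeR adjusted p = 2.97e-08). Its fitted log2 fold change was -9.10, and -10.05 without CS16-2. SEMA7A, a GPI-anchored semaphorin that binds integrins and PLXNC1, had 73.2, 139 and 90.5 CPM in WT, 3.97, 3.29 and 3.34 in CS16 and 2.54, 2.00 and 1.90 in CS19 (log2 fold change -5.15, SE 0.27, edgeR adjusted p = 2.07e-08). SEMA6B, which binds A-type plexins, had 30.7, 118.5 and 36.9 CPM in WT, 3.87, 2.67 and 3.54 in CS16 and 4.68, 4.42 and 3.63 in CS19 (log2 fold change -4.03, SE 0.37, edgeR adjusted p = 2.28e-06, and -3.15 without WT-2). SEMA5A, SEMA6B and SEMA7A were thus below WT in all 6 libraries. The other 2 class 6 semaphorins among the members went the other way. SEMA6A had 4.04, 5.13 and 2.62 CPM in WT, 30.3, 27.2 and 29.6 in CS16 and 20.8, 23.3 and 18.5 in CS19 (log2 fold change 2.66, SE 0.27, edgeR adjusted p = 4.34e-06). SEMA6D had 0.937, 0.399 and 0.462 CPM in WT, 7.99, 7.54 and 6.72 in CS16 and 5.27, 5.64 and 5.63 in CS19 (log2 fold change 3.40, SE 0.33, edgeR adjusted p = 3.11e-06). Each of the 6 libraries was above each WT library for both.

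The receptors of the semaphorins had a lower level in the 6 libraries as a group, with 381 to 1090 TPM in WT and 94.4 to 153 TPM in the 6. NRP1, the co-receptor of class 3 semaphorins and of VEGFA, had WT libraries close together, with 639, 654 and 649 CPM in WT, 30.1, 29.3 and 28.0 in CS16 and 82.8, 85.5 and 84.3 in CS19 (log2 fold change -3.51, SE 0.39, edgeR adjusted p = 1.08e-05). It was lower in both clones (-4.44 in CS16 and -2.90 in CS19 on the log2 scale), and CS16 lay below CS19 (log2 fold change -1.54, SE 0.07, edgeR adjusted p = 6.5e-09). NRP2 fell by less than the threshold (log2 fold change -1.11, SE 0.17, edgeR adjusted p = 0.000148).

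The plexin values rested on WT-2 to a large degree. The 8 plexins summed to 271 TPM in WT-1, 874 TPM in WT-2 and 216 TPM in WT-3, and to 82.5 to 122 TPM in the 6 others. PLXNA1 had 384, 1132 and 381 CPM in WT, 119, 113.1 and 123 in CS16 and 126, 126 and 123 in CS19 (log2 fold change -2.38, SE 0.29, edgeR adjusted p = 2.29e-05, and -1.66 without WT-2, no longer called). PLXND1, a receptor of vessel patterning, had 56.7, 184 and 50.8 CPM in WT, 12.3, 13.0 and 13.6 in CS16 and 18.5, 20.7 and 16.4 in CS19 (log2 fold change -2.62, SE 0.35, edgeR adjusted p = 5.17e-05, and -1.77 without WT-2, no longer called). PLXNA3 had 62.2, 269.9 and 57.0 CPM in WT, 19.7, 17.0 and 20.4 in CS16 and 26.4, 26.4 and 21.8 in CS19 (log2 fold change -2.56, SE 0.41, edgeR adjusted p = 0.000185, and -1.45 without WT-2, no longer called). In CS19 alone the call of PLXNA3 also ended without CS19-2 (edgeR adjusted p = 0.0517) or without CS19-3 (edgeR adjusted p = 0.0501). All 6 libraries were below WT-1 and WT-3 as well for each of these 3 genes.

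PLXNA2 had 29.8, 89.7 and 28.4 CPM in WT, 3.97, 3.05 and 3.58 in CS16 and 8.45, 8.24 and 7.46 in CS19 (log2 fold change -3.09, SE 0.42, edgeR adjusted p = 5.88e-05, and -2.33 without WT-2) and so kept its call, though not in CS19 alone (-2.58, then -1.84). PLXNA4 had 5.28, 8.50 and 4.88 CPM in WT, 1.76, 1.29 and 1.51 in CS16 and 1.09, 0.780 and 0.884 in CS19 (log2 fold change -2.35, SE 0.29, edgeR adjusted p = 2.49e-05). In CS16 it lay at the threshold and was not called (log2 fold change -2.00, SE 0.32, edgeR adjusted p = 0.00137), and in CS19 it was (log2 fold change -2.72, SE 0.33, edgeR adjusted p = 0.000339). PLXNB2, a receptor of class 4 semaphorins that had the highest mean TPM of the plexins in both clones and came after PLXNA1 in WT, had 206, 733 and 221 CPM in WT, 127, 113.6 and 126 in CS16 and 128, 137 and 122 in CS19, below WT in all 6 but not called (log2 fold change -1.62, SE 0.33, edgeR adjusted p = 0.00104). PLXNB1 was lower by less than the threshold (log2 fold change -0.87, SE 0.27, edgeR adjusted p = 0.0142), and PLXNC1 did not pass the test (log2 fold change 0.22, SE 0.18, edgeR adjusted p = 0.292).

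**Figure D4:**
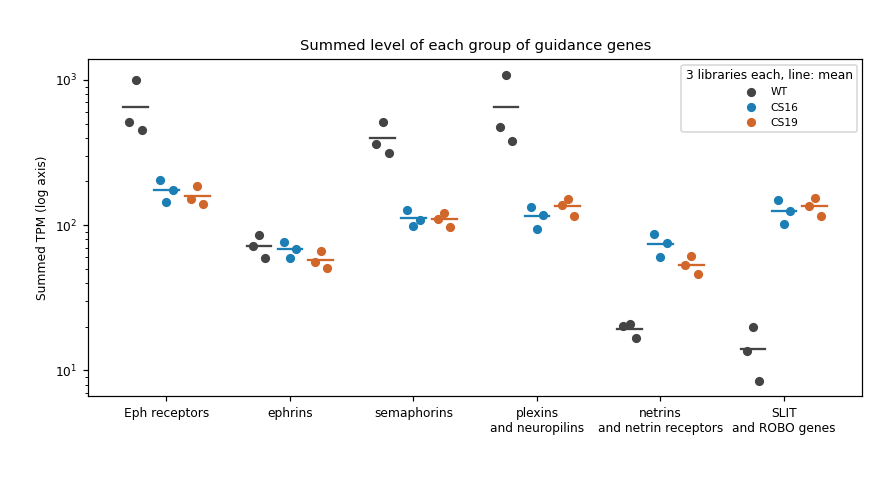
Summed TPM of 6 groups of guidance genes in each library (points, log axis), with the mean of the 3 libraries of WT, CS16 and CS19 as lines. The SLIT and ROBO points rise from 8.51 to 19.8 in WT to 102 to 153 in the clones, the plexins and neuropilins lie lower in the clones, and the ephrins overlap.

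The 2 netrins went in opposite directions. NTN4, a basement membrane netrin that binds laminin, had 18.9, 15.7 and 20.4 CPM in WT, 6.37, 4.53 and 5.89 in CS16 and 7.72, 8.37 and 7.72 in CS19, below WT in all 6 libraries by less than the threshold (log2 fold change -1.44, SE 0.20, edgeR adjusted p = 7.46e-05). NTN1, the diffusible ligand of DCC and the UNC5 receptors, had 0.592, 2.17 and 0.0513 CPM in WT, 30.5, 30.1 and 33.2 in CS16 and 30.7, 31.6 and 30.5 in CS19 (log2 fold change 5.08, SE 0.61, edgeR adjusted p = 2.12e-05, and 6.55 without WT-2). NTN1 varied among the WT libraries from 1 to 38 counts and in the 6 others from 623 to 931. By TPM, NTN4 was 69.5% of the netrin group in WT, 5.48% in CS16 and 10.4% in CS19, and NTN1 was 2.6%, 20.6% and 27.4%. The receptor NEO1 had the largest share in both clones, at 35.8% in CS16 and 41.3% in CS19.

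The 3 netrin receptors that were tested all rose. NEO1, which also binds repulsive guidance molecules, had 11.7, 16.0 and 10.7 CPM in WT, 72.4, 65.6 and 68.5 in CS16 and 57.2, 63.3 and 56.2 in CS19 (log2 fold change 2.32, SE 0.18, edgeR adjusted p = 5.09e-07). UNC5B, a dependence receptor that can trigger cell death without ligand, had 0.148, 1.08 and 0.154 CPM in WT, 37.5, 31.5 and 39.0 in CS16 and 18.9, 20.5 and 18.2 in CS19 (log2 fold change 5.93, SE 0.61, edgeR adjusted p = 5.77e-06, and 7.46 without WT-2). UNC5C had 0.0986, 0.171 and 0.308 CPM in WT, 42.7, 39.3 and 37.8 in CS16 and 8.59, 10.3 and 9.03 in CS19 (log2 fold change 6.96, SE 0.92, edgeR adjusted p = 4.15e-05). The 6 libraries lay above WT for all 3, and CS16 was above CS19 for UNC5C (log2 fold change 2.09, SE 0.09, edgeR adjusted p = 7.13e-09). DCC, the classical netrin receptor, had at most 1 count in any library, so the level was not detectable at this depth (3 counts correspond to 0.0982 to 0.171 CPM).

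The SLIT and ROBO genes had the largest rise in summed level of the 6 groups of members, from 8.51 to 19.8 TPM in WT to 102 to 153 TPM, 9.32 times as high in the mean and 11.8 times without WT-2. SLIT2, a secreted ligand of ROBO1 and ROBO2, had 28.6, 48.1 and 22.1 CPM in WT, 215, 196 and 209 in CS16 and 255, 257 and 240.0 in CS19 (log2 fold change 2.79, SE 0.25, edgeR adjusted p = 1.72e-06). ROBO1 had 13.4, 13.6 and 11.4 CPM in WT, 237, 203 and 219.9 in CS16 and 208, 235 and 212 in CS19 (log2 fold change 4.10, SE 0.15, edgeR adjusted p = 1.87e-09). ROBO2 had 0, 0 and 0 counts in WT, 370, 340 and 400 in CS16 and 271, 318 and 405 in CS19, at least 283-fold higher in the 6 libraries against a floor of 3 counts over WT (edgeR adjusted p = 3.7e-08). The libraries of the groups did not overlap in any of these. SLIT2 held 46.6% and ROBO1 49.7% of the group's summed TPM in CS16, whereas in CS19 SLIT2 held 51.1% and ROBO1 44.5%. SLIT3 had 0.0986, 0 and 0 CPM in WT, 4.26, 3.58 and 4.58 in CS16 and 2.77, 2.34 and 1.67 in CS19, with 2 counts in all of WT, a ratio of 89.3 with an interval of 24.6 to 740.0 (edgeR adjusted p = 1.17e-05). Its fitted log2 fold change was 6.31, and 9.16 without WT-1, which held both WT counts.

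SLIT1 had 1.28, 1.60 and 0.513 CPM in WT, 1.81, 1.67 and 2.47 in CS16 and 10.4, 8.76 and 8.25 in CS19 (log2 fold change 2.30, SE 0.72, edgeR adjusted p = 0.0146). It was called in CS19 (log2 fold change 3.05, SE 0.41, edgeR adjusted p = 0.000547) and not in CS16 (log2 fold change 0.84, SE 0.44, edgeR adjusted p = 0.144). The call over the 6 libraries ended without WT-3 (1.97, adjusted p = 0.0527 in edgeR) and where the 3 groups shared 1 fit (1.92).

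The clones were then compared with each other. Of 56 members tested, 2 were called higher and 2 lower in CS16 than in CS19, where 0.633% and 0.496% of all genes were called. With no fold threshold, 18 members were higher and 15 lower at an adjusted p below 0.05, where 14.7% and 12.7% of all genes were. EPHA10, an Eph receptor without kinase activity, had 1.04, 1.65 and 1.33 CPM in WT, 0.588, 0.716 and 1.31 in CS16 and 9.22, 8.76 and 8.28 in CS19 (log2 fold change -3.29, SE 0.22, edgeR adjusted p = 3.2e-07). Against WT it did not pass the test in CS16 (log2 fold change -0.57, SE 0.40, edgeR adjusted p = 0.26) and was higher in CS19 (log2 fold change 2.74, SE 0.26, edgeR adjusted p = 9.9e-05). Over the 6 libraries together it was not called (log2 fold change 1.85, SE 0.91, edgeR adjusted p = 0.0961, and 1.06 where the 3 groups shared 1 fit), though it was without CS16-1 (2.08) or CS16-2 (2.08). The other kinase-inactive receptor, EPHB6, had 15, 40 and 34 counts in WT, 15, 15 and 21 in CS16 and 0, 2 and 9 in CS19 and was lower in CS19 (log2 fold change 2.38, SE 0.58, edgeR adjusted p = 0.00802, and 3.95 without CS19-3). Against WT it was called in CS19 (log2 fold change -3.41, SE 0.80, edgeR adjusted p = 0.00851, and -4.91 without CS19-3) and not in CS16 (log2 fold change -1.01, SE 0.44, edgeR adjusted p = 0.0866). Over the 6 libraries together EPHB6 missed the fold threshold (log2 fold change -1.83, SE 0.70, edgeR adjusted p = 0.0377) and passed it without WT-1 (-2.18) or without 1 of the CS16 libraries (-2.02, -2.00 and -2.13). Its difference between the clones was not called without CS19-1, the library with 0 counts (1.90), nor where the 3 groups shared 1 fit (adjusted p = 0.128 in edgeR).

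The other two were UNC5C, higher in CS16, and SLIT1, higher in CS19 (log2 fold change -2.19, SE 0.18, edgeR adjusted p = 1.64e-06). In SLIT1 the 3 CS16 libraries lay above the 3 WT libraries and below the 3 CS19 libraries. SEMA3E was also higher in CS16 (log2 fold change 1.17, SE 0.09, edgeR adjusted p = 8.34e-07), by less than the threshold. The median log2 fold change between the clones was 0.00 over the 56 members.

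**Figure D5:**
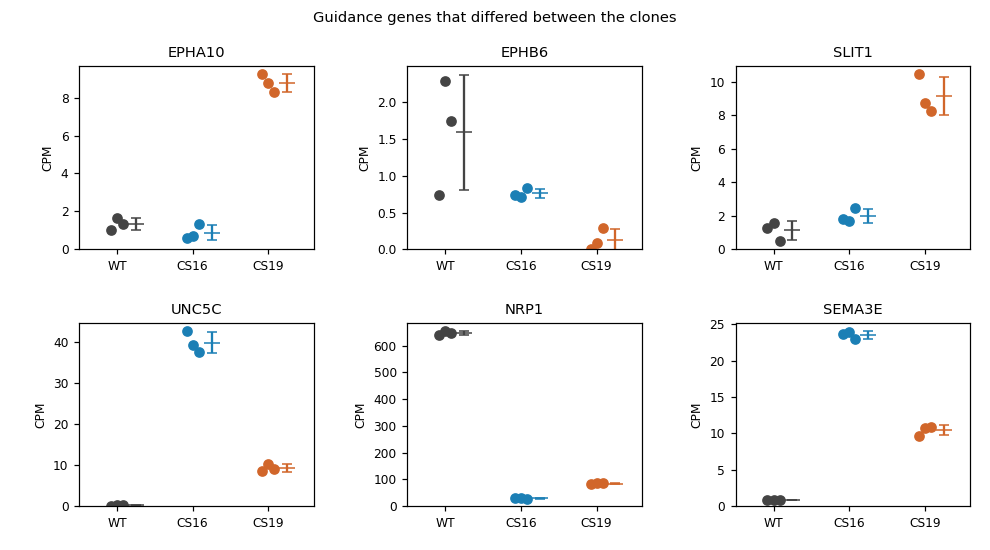
CPM of the 4 members called between CS16 and CS19 and of NRP1 and SEMA3E in each library (points), with the mean and SD of the 3 libraries of WT, CS16 and CS19 beside them. EPHA10 and SLIT1 are highest in CS19, UNC5C and SEMA3E highest in CS16, EPHB6 is at 0 to 9 counts in CS19, and NRP1 is far higher in WT than in either clone.

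Other genes of the same pathways were counted list by list. Of 21 further guidance ligands and receptors, 16 were tested against WT, with 6 called higher and 6 lower, or 37.5% each way, beside 12.6% and 14.3% of all genes. EPHA6 had 1, 1 and 0 counts in WT, 210, 185 and 273 in CS16 and 180, 183 and 286 in CS19, a ratio of 265 with an interval of 73.3 to 2190. FLRT3, a membrane protein that binds UNC5 receptors, had 9, 2 and 1 counts in WT, 1534, 1432 and 1660 in CS16 and 2500, 3186 and 3871 in CS19 (log2 fold change 8.84, SE 0.56, edgeR adjusted p = 8.89e-08), and its relative FLRT2 had 843, 668 and 661 counts in WT, 1, 0 and 0 in CS16 and 2, 3 and 2 in CS19 (log2 fold change -9.26, SE 0.38, edgeR adjusted p = 2.93e-09). SEMA3G rose (log2 fold change 3.10, SE 0.27, edgeR adjusted p = 1.37e-06). RGMB, a ligand of NEO1, fell (log2 fold change -2.56, SE 0.20, edgeR adjusted p = 4.72e-07), and so did ROBO4, a receptor of endothelial cells (log2 fold change -7.28, SE 0.60, edgeR adjusted p = 9.07e-07).

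Genes that act inside the cell were counted in the same fit. Of 24 tested Eph and ephrin mediators, 3 were called higher and 2 lower, or 12.5% and 8.33%, beside 12.6% and 14.3% of all genes. GRIP1, a scaffold of B-type ephrins, and KALRN, an exchange factor, rose (2.60 and 2.52 on the log2 scale), and the exchange factor VAV3 had 0, 0 and 0 counts in WT, 456, 520 and 576 in CS16 and 303, 372 and 434 in CS19, at least 358-fold higher. ADAM10, the protease that cuts ephrins, and the adaptor GRB7 fell (-2.14 and -3.69). Of 21 plexin and semaphorin mediators, 4 were called higher and 3 lower, or 19.0% and 14.3%, beside the same 12.6% and 14.3%. The collapsin response mediators split: DPYSL5 had 0, 1 and 0 counts in WT, 1219, 1286 and 1498 in CS16 and 1658, 1861 and 2076 in CS19, a ratio of 3870 with an interval of 694 to 153000, and DPYSL4 rose (5.56), whereas DPYSL2 fell (-2.36). Of the adhesion molecules that accompany semaphorin receptors, NRCAM rose and L1CAM fell (4.30 and -7.79), and the actin-oxidising enzyme MICAL2 fell too (-5.70).

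Of 27 tested mediators of netrin, SLIT and ROBO signals, 3 were called higher and 7 lower, or 11.1% and 25.9%, beside 12.6% and 14.3% of all genes. SRGAP3, a GTPase-activating protein that binds ROBO, rose (log2 fold change 4.80, SE 0.28, edgeR adjusted p = 4.3e-08), as did the actin regulators ENAH and EVL (2.49 and 2.28). ABLIM3, the exchange factor TRIO and the kinase PAK2 fell (-5.22, -2.95 and -2.26). The medians of the 4 lists were 0.14, -0.30, -0.34 and -1.09 in the order given, beside 0.00 over all genes.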

How the data were processed

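Total RNA of 9 untreated libraries was sequenced after ribosomal RNA depletion with a stranded kit. Reads were trimmed by the authors (Trimmomatic 0.36), mapped on GRCh38.p13 (STAR 2.7.2b) and counted on GENCODE release 38 (featureCounts of Subread 2.0.0), and the authors deposited whole-number counts per gene with the exon length of each gene. Per the file headers, read pairs with a mapping quality under 30 were left out and no strand option was set, so a gene and an overlapping antisense gene cannot be told apart; 24 of the 58 members overlap another gene.

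Libraries held 19527195 to 28627777 counts, and 3 counts, taken as the floor, were 0.0982 to 0.171 CPM. Genes were tested with edgeR 4.0.16 (filterByExpr, TMM, quasi-likelihood fit, Benjamini-Hochberg over all genes tested), with a log2 fold change of 2 or more in size and an adjusted p below 0.05 as thresholds, which were those of the study (with DESeq2). Each comparison had a fit of its own. DESeq2 1.42.0, RLE scaling, no filter, other thresholds, a shared fit, a replicate block and leaving out each library were the alternatives. The edgeR fits were tested on simulated counts. CPM per kilobase was added after seeing the data.

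The members and lists were chosen with earlier results of these data known. Values in every library are given for the called members with the smallest adjusted p (at most 4 a subfamily), those called between the clones or in 1 clone, and the member with the highest TPM of each subfamily. The labels do not say that replicates were separate cultures, so p-values measure only the spread between these samples. Fits over the libraries labelled SNAI1-KO took CS16 and CS19 as a single group. Their p-values therefore do not measure the spread between independent clones. Symbols were matched for 99.67% of genes and for all 58 members.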

Additional observations from a re-analysis of the deposited data

Results flagged for a closer look

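In EFNA2, 1 of the 6 libraries labelled SNAI1-KO, CS16-1, lay far above the others, at 2.4 CPM. It was the only 1 of 56 members checked, and chance picks out about 1 in 20 such groups. For 4 members the clones differed in edgeR's test of CS16 against CS19. The log2 fold change was -3.29 for EPHA10, 2.38 for EPHB6, 2.09 for UNC5C and -2.19 for SLIT1. EPHA10 and SLIT1 were called higher than WT in CS19 and not called in CS16, EPHB6 was called lower in CS19 and not called in CS16, and UNC5C was called higher in both.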

How the results depend on the processing

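Calls and directions mostly held. Of the 36 members called in the 6 libraries against WT, 28 kept the call in all 14 alternatives. In CS16 it was 28 of 34, in CS19 31 of 37 and between the clones 3 of 4, each over 11 alternatives. Leaving out WT-2 ended 6 calls in the 6 libraries (EPHA1, EPHB2, SEMA3D, PLXNA1, PLXNA3 and PLXND1), 5 in CS16 (EPHB2, SEMA3D, SEMA4D, PLXNA1 and PLXNA3) and 6 in CS19 (EPHA1, SEMA3D, PLXNA1, PLXNA2, PLXNA3 and PLXND1). With no fold threshold, the members lower against WT numbered 26 in the 6 libraries, 25 in CS16 and 25 in CS19. Of all genes, 32.6%, 28.6% and 26.6% were lower in these comparisons. With a threshold of 1 the members lower numbered 24, 22 and 25. Shares of all genes at a threshold of 1 and with the replicate block are not given here. Between CS16 and CS19, 1 member was higher in a shared fit of the 3 groups, 18 were higher and 15 lower with no fold threshold, and 5 were lower with a threshold of 1. Leaving out 1 library, the members called higher between the clones numbered 1 to 2, with 1 without CS19-1. Members with a FOXA match numbered 1 in the bases before the start only. The summed levels moved by less than the spread between libraries with CPM per kilobase, whether scaled by RLE or TMM.

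A direction turned in 12 values, and the log2 fold change is given as its range over leaving out 1 library. Against WT, EFNA4 ran from -0.51 to 0.21 in the 6 libraries, from -0.51 to 0.20 in CS16 and from -0.48 to 0.25 in CS19, PLXNC1 in CS16 from -0.00 to 0.23 and EPHB3 in CS19 from -0.41 to 0.23, and each turned without WT-2. Between the clones EPHA5 ran from -0.15 to 0.00, EFNA4 from -0.17 to 0.08, EFNB1 from -0.12 to 0.00, SEMA3C from -0.05 to 0.04, SEMA4A from -0.17 to 0.07, NTN1 from -0.03 to 0.05 and ROBO1 from -0.05 to 0.07. SEMA3C was also 0.02 in DESeq2, 0.01 with RLE scaling and 0.00 with no filter and in the shared fit. The cause was not tested.

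Libraries of the same number did not deviate together more than others. Their correlations ran from -0.206 to 0.19, beside -0.212 to 0.218 for libraries of different numbers. Such weak correlations cannot show whether libraries of the same number shared a culture day or a batch. With the replicate block, the members called higher and lower numbered 21 and 14 in the 6 libraries, 21 and 13 in CS16, 23 and 13 in CS19 and 2 and 2 between the clones, where SEMA3C was 0.00. Depth limited DCC, EPHB6 and the genes with 3 or fewer counts in a group.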
